A study of Homo sapiens with 8 samples.

Results

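Decitabine (DAC) was compared with its solvent DMSO in parental THP-1 cells, an established human acute monocytic leukemia line. RNA was sequenced after 6 days of 1 µM DAC or of DMSO, with 2 libraries per group that the labels call biological replicates and whose genotype they give as WT. The genes described are all those with at least 1 FPKM (read counts scaled by exon length and by library size) in at least 2 of the 4 parental libraries, which holds for 13963 of the 60664 genes in the deposited table. The libraries of a DAC-resistant THP-1 line, with the same 2 treatments, entered the fit to share the estimate of the spread, which then ran on 14899 genes, and otherwise serve only for a contrast of the 2 lines in the closing section.

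DAC is a cytidine analogue that is phosphorylated in the cell and built into newly made DNA. There it traps DNA methyltransferases, above all DNMT1, so that methylation is lost as the cells divide. Genes kept silent by methylated CpG sites can then be transcribed. Germline and interferon-stimulated genes are the groups best known to rise with the drug. For interferon-stimulated genes, the paper cites reports of an indirect route, through sensing of double-stranded RNA from endogenous viruses. The comparison asked which other transcripts rose and fell in cells that respond to the drug.

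The reads on genes, worked back from FPKM and exon length, were estimated at 33088198 and 31636764 in the DMSO libraries and at 28728759 and 28717841 in the DAC libraries. They lie above the library totals that the worth of 1 read gives (31710480 and 30322399, then 27493581 and 27480502), for a reason that is not known, so their last digits carry no meaning. Genes above 0 numbered 27437 and 27326 with DMSO and 30957 and 30999 with DAC, although the DAC libraries were the shallower ones. Of 11 monocytic marker genes, 10 were at 1 FPKM or more in all 4 libraries. Their summed level was 373.7 to 374.3 FPKM with DMSO and 558 to 568 with DAC. Markers of other cell types were low but higher with DAC. The summed level of 6 T cell markers went from 0.0501 to 0.152 FPKM with DMSO to 3.77 to 4.05 with DAC, most of it TRAC, while CD3G stayed under 0.1 FPKM. The summed level of 5 fibroblast markers went from 0.755 to 0.839 to 14.5 to 14.8 FPKM, with COL1A1, COL3A1 and PDGFRB raised. Whether these levels bear on any result below was not tested. In bulk RNA, a change in the share of cells that express a gene and a change in RNA per cell cannot be told apart.

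DAC raised 990 genes (7.09% of the genes described) and lowered 391 (2.80%). For a gene to count, limma's unadjusted p had to be 0.01 or lower and FPKM + 1 had to change at least 2-fold. Each called gene also had a Benjamini-Hochberg adjusted p under 0.05, and in none did the 2 libraries of a group overlap with those of the other. Adjusted p was under 0.05 for 8428 genes in all, so the size of the change decided most calls. At an unadjusted p under 0.05, 37.7% of the genes described were higher and 27.4% lower with DAC, and counts at that p are to be read against these shares. An exact permutation test of 2 libraries against 2 gives at best a two-sided p of 0.333. The p-values therefore lean on the variance that limma borrows from all genes, and they measure the spread between these libraries. The split between rises and falls moved with the scaling. Rises made 71.7% of the calls on the deposited values and 59.5% (842 raised, 572 lowered) after quantile normalization.

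The rises came mostly from genes that were nearly silent with DMSO. Of the 990 raised genes, 571 were below 1 FPKM in both DMSO libraries and 120 had no read there at all. Such genes passed the expression filter through the DAC libraries alone and had to be higher with DAC. The median level of the raised genes was 0.533 FPKM with DMSO and 5.01 with DAC, while all genes described had a median of 5.00 with DMSO. Many of the falls came from abundant genes, with 210 of the 391 lowered genes at a mean of 10 FPKM or more with DMSO. The lowered genes had a median of 11.8 FPKM with DMSO, and 72 of them were above 100 FPKM. Over all genes described, which include those that had to be higher, rises were also the larger changes on the scale of FPKM + 1. There a fall cannot exceed log2 of the DMSO level plus 1, while a rise has no such limit. A gene below 1 FPKM in both DMSO libraries cannot be called lowered, which bears on the levels of lowered genes. A log2 fold change of 2 or more was seen in 284 raised genes and of 3 or more in 97, while 13 lowered genes reached −2. Sizes were not compared among genes at 1 FPKM or more with DMSO. Among the 12311 genes at 1 FPKM or more in both DMSO libraries, 385 were raised (3.13%) and 391 lowered (3.18%). That set holds the 68 lowered genes that were below 1 FPKM with DAC and leaves out their raised counterparts. Among the 11498 genes at 1 FPKM or more in all 4 libraries, 385 were raised and 299 lowered. Counts of calls in the lists below are to be read against 7.09% raised and 2.80% lowered. Those among genes at 1 FPKM or more with DMSO are to be read against 3.13% and 3.18%.

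**Figure D1:**
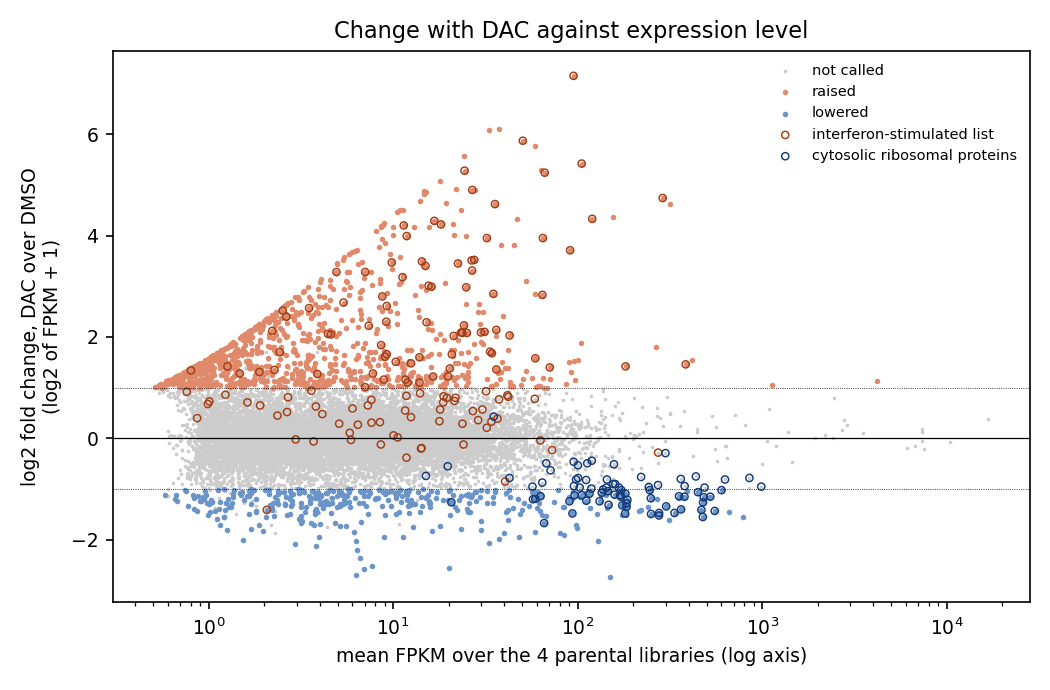
Log2 fold change of FPKM + 1 (DAC over DMSO) against the mean FPKM over the 4 parental libraries (log axis), with 1 point per gene. Raised genes fill the range below 100 FPKM and reach 7.15 (IFI27), while lowered genes seldom pass −2 and include ribosomal protein genes near and above 100 FPKM. Falls of genes with low FPKM are bounded on this scale, as FPKM + 1 cannot go below 1.

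Genes of serine synthesis held some of the largest falls. PSAT1, the aminotransferase of the serine pathway (chr9:78297125-78330093), was at 259.7 and 261.7 FPKM with DMSO and at 36.3 and 39.9 with DAC. Its log2 fold change was −2.74 (SE 0.042, adjusted p = 9e-08 in limma), the largest fall of a protein-coding gene on the scale of FPKM + 1. As a plain ratio of mean FPKM, without the added 1, its fall was 6.84-fold, less than that of LPO (10.7-fold), FLRT1 (9.83-fold) and INHBE (8.62-fold), which were less abundant. PHGDH, the dehydrogenase that opens the pathway (chr1:119648411-119744218), went from 60.1 and 61.2 FPKM to 14.2 and 15.2 (log2 fold change −1.98, SE 0.034). Of the mitochondrial folate enzymes, SHMT2 and ALDH1L2 were lowered with them. SHMT2, which passes a carbon from serine to folate, was at 98.6 and 102.3 FPKM with DMSO and 36.5 and 32.1 with DAC. ALDH1L2, which oxidises formyl folate, was at 35.9 and 34.5 FPKM and then at 4.80 and 5.52. PSPH, the phosphatase of the last step to serine, was lowered at the very limit of a call. In all, 5 of the 12 serine and folate genes measured were lowered and none was raised, and their median log2 fold change was −0.90 beside 0.06 over all genes described. MTHFD1L and MTHFD2 lay just short of a call at −0.95 and −0.85. The cytosolic counterparts SHMT1 and MTHFD1 were at 0.03 and −0.22.

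Some known targets of ATF4, the transcription factor that answers amino acid shortage and endoplasmic reticulum stress, were lowered. Of 35 genes on this list, 11 were lowered and 1 was raised, beside 2.80% and 7.09% of all genes. The others were not called, and the list's median log2 fold change was −0.87. CHAC1, which breaks down glutathione, was at 14.3 and 15.2 FPKM with DMSO and 2.96 and 3.27 with DAC. ATF5, a related transcription factor, was at 126.6 and 127.3 FPKM and then at 34.5 and 34.1. DDIT4, an inhibitor of mTORC1, was at 92.2 and 93.9 FPKM and then at 24.7 and 25.8. None of these levels overlapped between the groups. INHBE, an activin subunit, had the largest fall of the list, from 14.1 and 13.7 FPKM to 1.89 and 1.33 (log2 fold change −2.52, SE 0.098, adjusted p = 3.3e-06). The other lowered members were STC2, PYCR1, TRIB3, NUPR1, EIF4EBP1, PCK2 and the cystine transporter SLC7A11, at −1.46 to −1.06. ATF4 itself was at 206 and 212 FPKM with DMSO and 107.8 and 108.5 with DAC. Its log2 fold change of −0.94 (adjusted p = 6.3e-07) stops short of a call. Upper-quartile scaling took it to −1.06, and over the scalings tried it ran from −1.06 to −0.71.

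Other members of the ATF4 list were higher. PPP1R15A, the phosphatase subunit that restores translation, was the one raised, from 7.79 and 8.89 FPKM to 18.8 and 18.0 (log2 fold change 1.06, SE 0.070). It lost its call without the first DMSO library, at 0.97, and under quantile or upper-quartile scaling. The list's raised count was 3 with a pseudocount of 0.1, as TPM, with voom, and without the second DMSO or the first DAC library. DDIT3 (CHOP) was at 0.44, ATF3 at 0.98 and GDF15 just under the limit of a call, and these were named after their values were seen. Among 19 endoplasmic reticulum chaperones and unfolded protein response genes, 1 was raised, beside 7.09% of all genes, and none was lowered. With a pseudocount of 0.1 or with voom 3 were raised, and as TPM 2 were. At an unadjusted p under 0.05 there were 12 higher and 6 lower, and the median log2 fold change was 0.55. CALR, the calcium-binding chaperone calreticulin, was raised from 211 and 213 FPKM to 625 and 614 (log2 fold change 1.54, SE 0.020). HSPA5, the chaperone BiP, was at 0.89, and HERPUD1, EDEM1 and the transcription factor XBP1 were at −0.57, −0.43 and −0.34.

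Most aminoacyl-tRNA synthetases, which load amino acids onto tRNA, were lower, but not all. Of 21 cytosolic ones, 4 were lowered, beside 2.80% of all genes, none was raised, and the median log2 fold change was −0.54. At an unadjusted p under 0.05 in limma, 15 were lower and 4 higher, beside 27.4% and 37.7% of all genes. AARS1, for alanine, was at 65.3 and 65.2 FPKM with DMSO and at 23.8 and 25.1 with DAC. YARS1, for tyrosine, went from 37.4 and 36.0 FPKM to 13.2 and 13.5. GARS1 for glycine and IARS1 for isoleucine were lowered too, by −1.18 and −1.06 on the log2 scale. RARS1, HARS1 and KARS1, for arginine, histidine and lysine, were at 0.17, 0.18 and 0.25, and FARSA, a subunit for phenylalanine, was at 0.78.

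ATF4 and its partners are known to bind a composite site of the letters TGATGNAA. These letters, on either strand, stood in the 300 bases around the annotated start (250 before, 50 after) of 179 of 11147 protein-coding genes (1.61%). They stood in 15 of the 194 lowered genes (7.73%) and in 22 of the 736 raised ones (2.99%). On the fixed lists, 8 of 21 tRNA synthetases and 10 of 35 ATF4 targets held them, and none of 12 serine and folate genes did. The lowered holders were INHBE, LPO, CHAC1, BCAT1, RPS23, YARS1, AARS1, PYCR1, RPL31, GARS1, NUPR1, IARS1, SLC7A11, SERPINI2 and CTSG. A match describes the sequence and shows no binding. The windows below, from RefSeq (GRCh38.p14), show the match in capitals for 5 of these lowered genes. They are AARS1 (chr16:70289675-70289704, minus strand), IARS1 (chr9:92293698-92293727, minus), GARS1 (chr7:30594834-30594863, plus), CHAC1 (chr15:40953251-40953280, plus) and BCAT1, the branched-chain aminotransferase (chr12:24949131-24949160, minus). All but BCAT1 carry the match on the strand opposite to the gene.
AARS1: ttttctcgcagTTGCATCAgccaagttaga
IARS1: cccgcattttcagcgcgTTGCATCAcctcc
GARS1: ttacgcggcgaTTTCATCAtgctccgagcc
CHAC1: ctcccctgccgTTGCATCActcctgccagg
BCAT1: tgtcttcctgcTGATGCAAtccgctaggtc

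Ribosomal protein genes had the most lowered members of any list. Of 79 cytosolic ribosomal protein genes, 78 were lower with DAC, 44 were called lowered and none was raised. Their median log2 fold change was −1.04, beside 0.06 over all genes described, and the members ran from −1.67 to 0.43. As a share of all FPKM, they made up 8.02% and 8.38% of the DMSO libraries and 3.81% and 3.90% of the DAC libraries. RPL22 (chr1:6185020-6209389), a protein of the large subunit, had the largest fall, from 101.8 and 99.8 FPKM to 31.1 and 30.7 (log2 fold change −1.67, SE 0.025, adjusted p = 8.5e-08). RPS6, the small-subunit protein that S6 kinases phosphorylate, was at 793 and 823 FPKM with DMSO and 292 and 305 with DAC. RPS3A was at 704 and 719 FPKM and then at 242 and 244. RPS26 was the exception, at 0.43 and not called. The fall shrank under quantile normalization, which evens out the top of each library. There the median was −0.81 and 22 of the 79 genes were called. Reads of ribosomal protein genes can be shared with their many pseudogenes, so single values are uncertain to that extent. Of 145 processed pseudogenes named after ribosomal proteins, 47 were lowered and 4 were raised, against 32 and 32 of 481 other processed pseudogenes.

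Some translation factors were lowered too. EEF1A1, which brings tRNA to the ribosome (chr6:73489308-73525587), was at 1176 and 1168 FPKM with DMSO and at 399.9 and 407 with DAC. EEF2, which moves the ribosome along, was at 956 and 979 FPKM and then at 353 and 352. Both were among the most abundant lowered genes, with log2 fold changes of −1.54 and −1.45. On a list of 19 translation factors and other genes whose RNAs are known to start with an oligopyrimidine tract, 13 were lowered, with a median of −1.18. That list was added after values were seen, and 10 of its genes were lowered under quantile normalization. The 13 include the histone chaperone NAP1L1 (−1.49) and the long noncoding RNA GAS5 (−1.42), which are no translation factors. Also among them were EEF1B2 (−1.44), RACK1 (−1.42), PABPC1 (−1.20), TPT1 (−1.04) and the initiation factor subunits EIF3L, EIF3H, EIF3E and EIF3F (−1.51 to −1.09). TPT1 and PABPC1 lost their calls under quantile normalization, at −0.62 and −0.74. EIF4A2 was at −0.15, EEF1D at −0.23, HNRNPA1 at −0.55 and EIF3M at −0.57, none called. VIM (vimentin), on the same list, was raised from 7.42 and 7.15 FPKM to 51.5 and 50.8 (log2 fold change 2.65, SE 0.037). Of 20 ribosome biogenesis factors on a list, none was called, 15 were higher and 3 lower at an unadjusted p under 0.05, and the median was 0.27. FBL and NPM1 were the lowest at −0.69 and −0.61. NOP53, a biogenesis factor outside the list that was chosen after its values were seen, was lowered by −1.60, from a mean of 63.7 FPKM to 20.3.

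A terminal oligopyrimidine tract (TOP), a C followed by pyrimidines at the very start of the mRNA, places the translation of such mRNAs under mTOR control. Annotated starts of a C and at least 4 more pyrimidines were found for 649 of 11147 protein-coding genes (5.82%). They were found for 60 of the 79 ribosomal protein genes, 31 of the 150 other lowered protein-coding genes (20.7%) and 23 of the 736 raised genes (3.12%). The start did not separate the ribosomal protein genes among themselves. Those with it had a median of −1.03 and the 19 others one of −1.11. Of the 60 with it 34 were lowered, and of the 19 others 10 were. Outside ribosomal proteins, 31 of 589 genes with such a start were lowered (5.26%), and their median was −0.08. The windows below, from RefSeq (GRCh38.p14), run along the gene from 15 bases before the annotated start. The unbroken pyrimidines from that start are in capitals. They belong to RPL22 (chr1:6199581-6199610, minus strand), RPS3A (chr4:151099613-151099642, plus), RPS6 (chr9:19380222-19380251, minus), EEF1A1 (chr6:73521018-73521047, minus), EEF2 (chr19:3985449-3985478, minus) and TPT1 (chr13:45341169-45341198, minus), all lowered. RPS26 (chr12:56041903-56041932, plus), the ribosomal protein gene that was not lower, has no C at its annotated start. Neither do RPS4X and RPL4, which were lower with DAC, at −1.49 and −1.34.
RPL22: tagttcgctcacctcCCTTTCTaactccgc
RPS3A: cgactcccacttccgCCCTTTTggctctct
RPS6: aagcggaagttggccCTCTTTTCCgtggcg
EEF1A1: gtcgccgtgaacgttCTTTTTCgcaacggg
EEF2: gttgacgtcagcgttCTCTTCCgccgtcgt
TPT1: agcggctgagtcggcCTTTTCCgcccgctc
RPS26: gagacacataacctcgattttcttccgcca

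Of 24 genes of cholesterol synthesis and uptake, only DHCR7, which makes cholesterol from its last precursor, was called lowered, beside 2.80% of all genes. The count was 3 under quantile normalization and 4 under upper-quartile scaling. At an unadjusted p under 0.05, 23 of the 24 were lower with DAC, beside 27.4% of all genes, and the median was −0.55. DHCR7 was at 15.7 and 16.1 FPKM with DMSO and at 6.56 and 5.69 with DAC. HMGCS1 and FDPS, which act earlier in the pathway, were at −0.96 and −0.91. PMVK alone was higher, at 0.19. The fatty acid enzymes SCD and FASN were lowered. SCD was at 253.8 and 259 FPKM and then at 87.7 and 90.7, and FASN at 79.2 and 77.6 and then at 38.1 and 37.4. APOE, PLIN2 and ACSL1, which carry, store and activate lipids, were raised by 1.98, 1.23 and 1.21 on the log2 scale.

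The remaining large falls belonged to genes of unlike roles. ASS1, which makes argininosuccinate in arginine synthesis, was at 204.9 and 208.6 FPKM with DMSO and at 48.0 and 52.1 with DAC. G0S2, an inhibitor of the lipase ATGL, was at 55.7 and 52.1 FPKM and then at 12.3 and 11.8. FLRT1, an adhesion protein, was at 12.9 and 12.3 FPKM and then at 1.01 and 1.55. These 3 genes, with LPO, a peroxidase (−2.09), RIMS3, a synaptic regulator (−1.95), and RNF175 (−1.94), completed the 10 largest falls. CCNG1 (cyclin G1) fell from 186.6 and 188.9 FPKM to 65.9 and 65.5. In all, 109 of the 194 lowered protein-coding genes were on no list.

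**Figure D2:**
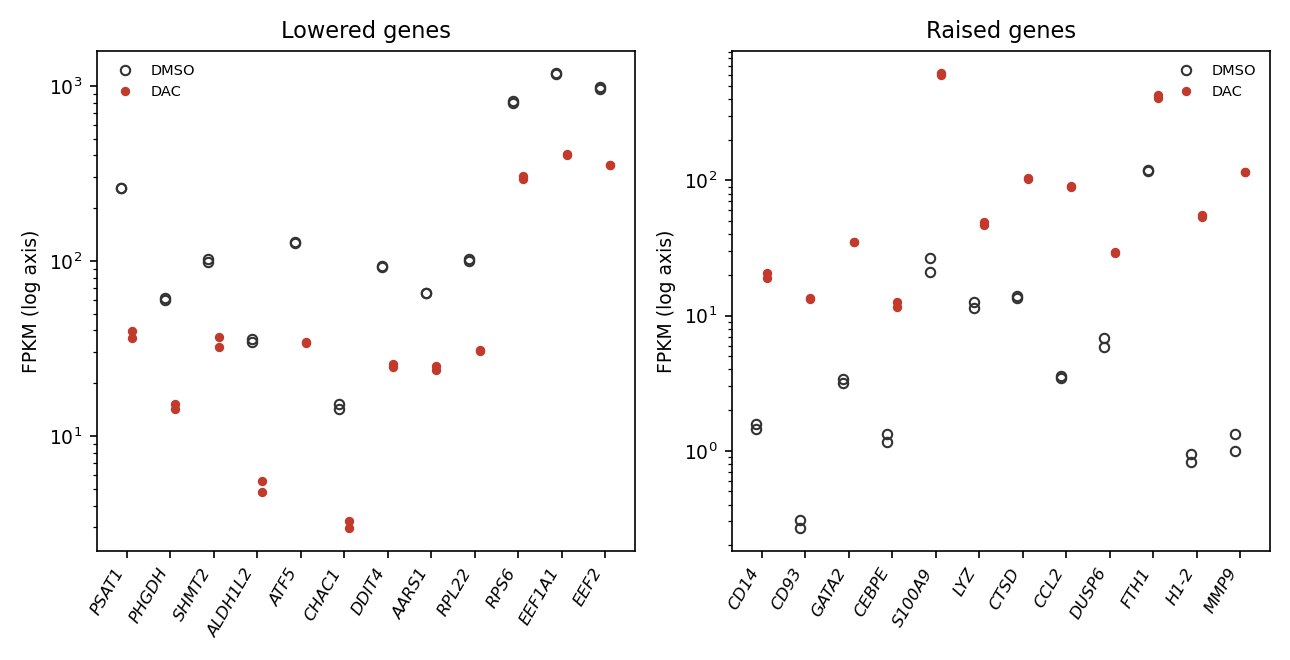
FPKM in each parental library (log axis) for 12 lowered and 12 raised genes named in the text, with open points for the 2 DMSO libraries and filled points for the 2 DAC libraries. The groups do not overlap for any gene, and the 2 libraries of a group lie close together, as for PSAT1 at 259.7 and 261.7 against 36.3 and 39.9.

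Outside the interferon-stimulated and X-linked cancer-testis lists, 887 genes were raised, 633 of them protein-coding. The 10 largest rises of protein-coding genes began with CXCL13, a chemokine for B cells (chr4:77511753-77611834). It was at 0.110 and 0.0919 FPKM with DMSO and at 75.6 and 74.3 with DAC (log2 fold change 6.11, SE 0.092, adjusted p = 9e-08). MMP9, a gelatinase that leukocytes secrete (chr20:46008908-46016561), was at 1.34 and 0.988 FPKM and then at 116.3 and 116.4. CCL8, a monocyte chemokine, had 1 read in each DMSO library and was at 50.6 and 46.0 FPKM with DAC. S100A9, the calcium-binding alarmin of myeloid cells (chr1:153357854-153361023), started higher, at 21.1 and 26.6 FPKM, and reached 619 and 600.5. GPNMB, a glycoprotein of macrophages, was at 1.11 and 0.977 FPKM and then at 46.4 and 45.0. The others were PNMA5 (5.08), IGFBP3, a carrier of insulin-like growth factors (4.91), the linker histone H1-2 (4.89), SPARC, a matrix protein (4.88), and OTOF (otoferlin, 4.85).

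Receptors of monocytes and macrophages moved both ways. Of 41, 14 were raised and 1 was lowered, beside 7.09% and 2.80% of all genes, with a median log2 fold change of 0.68. There were 28 higher and 8 lower at an unadjusted p under 0.05. Of the 14, 8 had passed the filter through the DAC libraries alone. Among the 31 receptors at 1 FPKM or more with DMSO, 6 were raised, beside 3.13% of all genes at that level, and the median was 0.43. CD14, the co-receptor for lipopolysaccharide (chr5:140631728-140633700), was at 1.45 and 1.58 FPKM with DMSO and at 18.98 and 20.8 with DAC (log2 fold change 3.05, SE 0.13, adjusted p = 5.4e-06). CD93 was at 0.307 and 0.267 FPKM and then at 13.3 and 13.4, and CD86, which costimulates T cells, rose from 0.303 and 0.163 FPKM to 8.93 and 8.82. The macrophage receptors ADGRE1, STAB1 and VSIG4 rose by 2.60, 2.53 and 2.28 on the log2 scale. CCR2, the receptor for CCL2, fell from 60.1 and 63.0 FPKM to 22.1 and 22.9. CSF1R (0.87), ITGAM (0.74), CD68 (0.69) and CD33 (−0.29) were not called. CSF3R, CX3CR1 and LILRB4 were at −0.87, −0.82 and −0.78, also short of a call. Of the 11 monocytic markers 3 were raised, and CST3 was at −0.22.

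About as many lysosomal genes were raised as were not. Of 27 enzymes and their inhibitors, 14 were raised, beside 7.09% of all genes, and none was lowered. The median was 1.04, and 4 genes lay lower with DAC at an unadjusted p under 0.05. Of the 14, 3 had passed the filter through the DAC libraries alone. Among the 24 at 1 FPKM or more with DMSO, 11 were raised, beside 3.13% of all genes at that level, with a median of 0.83. CTSD (cathepsin D) was at 13.95 and 13.4 FPKM with DMSO and at 104.8 and 103.4 with DAC. CTSA, the protective protein, was at 7.05 and 7.30 FPKM and then at 30.6 and 30.8, and NEU1, its partner sialidase, at 8.79 and 9.24 and then at 32.8 and 32.0. CTSL, CTSH and CTSB were raised by 1.59, 1.52 and 1.07. TPP1 and GAA were not called, both at −0.33.

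Granule genes were raised in part. Of 16, 8 were raised and 1 was lowered, beside 7.09% and 2.80% of all genes. Of the 12 at 1 FPKM or more with DMSO, 5 were raised, beside 3.13% of all genes at that level. The median was 0.98 over all 16 and 0.14 over those 12. LYZ (lysozyme) was at 11.4 and 12.6 FPKM with DMSO and at 46.7 and 48.9 with DAC. SRGN, the proteoglycan that packs granules, was at 734 and 729.7 FPKM and then at 1525 and 1506, one of the most abundant rises. It dropped under the call at upper-quartile scaling, at 0.93. CTSG (cathepsin G) fell from 102.7 and 107.6 FPKM to 52.8 and 50.01, close to the limit of a call at −1.02. It lost its call without the second DMSO or the second DAC library, at −0.99 and −0.98, and under quantile normalization, just inside the limit. ELANE and PRTN3 were at −0.39 and 0.09. PRG2, the major basic protein of eosinophils, had no read with DMSO and was at 11.5 and 10.2 FPKM with DAC, at least 414-fold higher against a floor of 3 reads over the 2 DMSO libraries.

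Of 35 transcription factors of blood cells, 12 were called raised, beside 7.09% of all genes, and none lowered, with a median of 0.56. There were 22 higher and 7 lower at an unadjusted p under 0.05. Of the 30 at 1 FPKM or more with DMSO, 7 were raised, beside 3.13% of all genes at that level, and the median was 0.30. GATA2, of stem, mast and basophil cells, was at 3.20 and 3.42 FPKM with DMSO and at 34.8 and 35.1 with DAC. CEBPE, of granulocytes, was at 1.17 and 1.33 FPKM and then at 12.6 and 11.5, and GATA1 rose by 1.85. The factors that set the myeloid identity of the line moved less. SPI1 (PU.1) was at 102 and 102 FPKM with DMSO and at 129 and 125 with DAC (0.31), and CEBPA was at 0.26. MYB was at 66.3 and 62.1 FPKM and then at 63.5 and 63.6, and its sign changed with the scaling (−0.01, and 0.01 with quantile normalization). MYC was at 32.8 and 31.4 FPKM and then at 17.1 and 16.9 (−0.88, adjusted p = 3.9e-06, not called). Of 12 HOXA genes and partners, none was called, 8 were lower and 1 higher at an unadjusted p under 0.05, and the median was −0.28. HOXA9 was at −0.14, and MEIS1 was below the filter.

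Cytokine and NF-κB genes were raised at 15 of 30, beside 7.09% of all genes, with none lowered. But 14 of the 30 had passed the filter through the DAC libraries alone. Among the 16 at 1 FPKM or more with DMSO, 4 were raised, beside 3.13% of all genes at that level. CCL2, which recruits monocytes, was at 3.48 and 3.60 FPKM with DMSO and at 90.7 and 89.6 with DAC. CXCL8, which recruits neutrophils, was at 1.13 and 1.39 FPKM and then at 41.9 and 40.5. IL1B, CXCL1 and TNF rose by 3.08, 2.79 and 2.07. The NF-κB subunits NFKB1, NFKB2 and RELB were at 0.45, 0.43 and 0.71, none called. With S100A9 rose its partner S100A8, from 5.06 and 5.22 FPKM to 85.0 and 86.0, and S100A12 (4.01), while S100A4, S100A6 and S100A10 were at 0.18, 0.19 and 0.03. Of 17 complement and coagulation genes, 8 were raised, 3 of which had passed the filter through the DAC libraries alone. Among the 12 at 1 FPKM or more with DMSO, 4 were raised, beside the same 3.13%, and the median was 0.51. C1QA, a chain of the complement recogniser C1q, was at 0.801 and 1.03 FPKM and then at 16.7 and 15.3. C1QB and C1QC, the other chains, had 2 and 3 reads in the first DMSO library and none in the other, and reached 10.1 and 9.66, and 10.8 and 10.5 FPKM. SERPINA1, the antitrypsin, was raised by 2.92 and C3AR1, a receptor for a C3 fragment, by 2.52.

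Genes that answer RAS-ERK signalling were raised at 9 of 15, beside 7.09% of all genes, with none lowered and a median of 1.09. Among the 12 at 1 FPKM or more with DMSO, 6 were raised and the median was 0.94. DUSP6, a phosphatase that ERK induces and that acts back on it, was at 6.87 and 5.82 FPKM with DMSO and at 29.4 and 29.3 with DAC. DUSP4 and IER3 were raised by 2.35 and 3.13 on the log2 scale, and DUSP1 from 1.11 and 1.20 FPKM to 7.93 and 8.55. FOS, JUN and EGR1, immediate early factors, were raised by 1.75, 1.74 and 1.73. DUSP2 lay just above the limit of a call at 1.001, and MEFV just below it. On the lowered side LINC01133 lay just past it and EEF1A2 just short of it, at −0.999.

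Some genes that handle iron and other metals were raised. FTH1, the ferritin heavy chain, was at 117.8 and 120.4 FPKM with DMSO and at 425 and 406 with DAC. HMOX1, which degrades heme, was at 1.64 and 1.44 FPKM and then at 20.6 and 20.3. On the list of 19 NRF2 targets that holds both, 3 were raised and SLC7A11 was lowered, with a median of 0.45, and GCLM, ME1 and TXNRD1 were at −0.01, 0.03 and 0.07. Of 6 metallothioneins and partners, MT2A, MT1E and MT1G were raised (2.83, 1.43 and 1.10). MT1G lost its call without the first DMSO or the second DAC library, at 0.99 and 0.88.

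Histone genes, whose usual mRNAs end in a stem-loop and carry no poly(A) tail, were raised at 18 of 22 measured and none was lowered. Another 45 histone genes were below the filter, and 17 of the 22 had passed it through the DAC libraries alone. H1-2 was at 0.820 and 0.947 FPKM with DMSO and at 54.1 and 55.6 with DAC. H2BC12 was at 2.49 and 1.67 FPKM and then at 50.6 and 44.8. The 22 genes together made up 0.00466% and 0.00568% of all FPKM with DMSO and 0.0690% and 0.0691% with DAC. Reads of near-identical histone genes can be shared. Some abundant noncoding RNAs without a tail were raised too, on a list added after values were seen. The RNA of the signal recognition particle, RN7SL1, was at 14.1 and 12.8 FPKM with DMSO and at 300.2 and 292 with DAC. SNORD3A (U3), which processes ribosomal RNA, was at 2.53 and 1.89 FPKM and then at 121.4 and 126, and the spliceosomal RNU4-2 at 0.447 and 0.702 and then at 37.4 and 38.7. Of 10 such RNAs measured, 8 were raised, 5 of which had passed the filter through the DAC libraries alone, and 2 of the 4 at 1 FPKM or more with DMSO were raised. The 10 together went from 0.00771% and 0.00777% of all FPKM to 0.178% and 0.182%. The 114 snRNA genes as a whole moved less. Of these, 20 were raised and 6 lowered, the median was 0.03, and their share went from 0.0718% and 0.0748% to 0.103% and 0.102%. For histone mRNAs and these noncoding RNAs, more RNA in the cells and more capture of it into the libraries cannot be told apart here. The mitochondrial ribosomal RNA MT-RNR1 was the most abundant raised gene, from 2684 and 2564 FPKM to 5796 and 5786. Its log2 fold change was 1.14, but 0.67 and not called under quantile normalization. The 13 mitochondrial mRNAs had a median of 0.07 and no call (6 higher and 4 lower at an unadjusted p under 0.05).

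Genes of the cell cycle were seldom called, with shares of lowered genes below or close to the 2.80% of all genes. Of 40 mitosis genes, none was called, and the median was −0.26. At an unadjusted p under 0.05, 26 were lower and 5 higher, beside 27.4% and 37.7% of all genes. Of 34 DNA replication genes, only CDT1, which licenses replication origins, was lowered, from 49.8 and 46.6 FPKM to 20.9 and 21.6. At an unadjusted p under 0.05, 20 of the 34 were lower and 4 higher, and the median was −0.22. Of 24 p53 targets, BTG2, PHLDA3 and TP53I3 were raised (1.32, 1.25 and 1.17), beside 7.09% of all genes, and CCNG1 was lowered. PHLDA3 had passed the filter through the DAC libraries alone. Among the 21 targets at 1 FPKM or more with DMSO, 2 were raised, beside 3.13% of all genes at that level. CDKN1A (p21) was at 17.4 and 19.2 FPKM and then at 33.7 and 37.3 (0.92, adjusted p = 0.00015, not called), and MDM2 was at 0.28. In the BCL2 family, BCL2A1 and BOK were raised (2.34 and 1.08) among 15, beside the same 7.09%. BOK had passed the filter through the DAC libraries alone, and it was at 0.86 and not called under quantile normalization. Of the 14 family members at 1 FPKM or more with DMSO, 1 was raised, beside 3.13% of all genes at that level. BCL2 was at −0.88 and MCL1 at 0.40, neither called.

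None of the drug's own targets, nor of the transporters and enzymes that handle it, was called. Among 17 genes of DNA methylation none was called, with 6 higher and 5 lower at an unadjusted p under 0.05 in limma. DNMT1 was at 21.9 and 22.2 FPKM with DMSO and at 26.2 and 26.7 with DAC (log2 fold change 0.25, SE 0.027, adjusted p = 0.00032). DNMT3A was at 0.15 (adjusted p = 0.048) and DNMT3B at −0.16 (adjusted p = 0.21). The 14 genes of DAC metabolism ran from −0.51 to 0.98, with 5 higher and 7 lower at an unadjusted p under 0.05. The highest was SLC28A3, a nucleoside transporter, and 1 of the 14 was called raised with a pseudocount of 0.1, as TPM, with voom, and without the first DMSO or the second DAC library. DCK, the kinase that activates DAC, was at 27.5 and 26.5 FPKM and then at 22.99 and 24.5 (−0.18, adjusted p = 0.014). CDA, the deaminase that inactivates it, was at 2.35 and 2.17 FPKM and then at 2.71 and 3.51 (0.33, adjusted p = 0.14).

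The groups that DAC is best known for were raised as follows. Of 141 interferon-stimulated genes, 82 were raised and 1, CD38, was lowered, with a median of 1.34. Of the 82, 21 had passed the filter through the DAC libraries alone. Among the 113 at 1 FPKM or more with DMSO, 60 were raised and the median was 1.16. Antigen presentation overlaps with that list. TAP1, the peptide transporter, was at 7.63 and 8.12 FPKM and then at 38.1 and 43.1, and B2M, the light chain of class I molecules, at 205.7 and 203 and then at 570.2 and 562. Of 18 class I pathway genes 5 were raised, with a median of 0.79, and of 7 class II genes only HLA-DRA was raised, by 1.97. Of 99 X-linked cancer-testis genes, 24 passed the filter and 21 were raised, but 20 of these had passed it through the DAC libraries alone. Of 53 autosomal germline genes, 19 passed and 10 were raised, 9 of them likewise. DAZL, an RNA-binding protein of germ cells, had no read with DMSO and was at 21.0 and 22.7 FPKM with DAC, at least 1605-fold higher. Of 366 ZNF genes, 8 were raised (7 passing through the DAC libraries alone), beside the 7.09% of all genes. That count depends on the scale, with 22 at a pseudocount of 0.1, 16 as TPM and 26 with voom, where the raised genes in all numbered 1332, 1231 and 1395 in place of 990. Of 30 imprinted genes, 13 passed, and CDKN1C, NDN and PHLDA2 were raised, beside 7.09% of all genes. NDN had passed through the DAC libraries alone, and 1 of the 10 at 1 FPKM or more with DMSO was raised, beside 3.13% at that level.

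By kind of gene, 736 of 11160 protein-coding genes (6.59%) and 109 of 1317 long noncoding RNAs (8.28%) were raised, and 194 (1.74%) and 74 (5.62%) were lowered. On chromosome X 55 of 411 protein-coding genes were raised (13.4%), against 677 of 10725 on the autosomes (6.31%). Without the cancer-testis list it was 34 of 388 (8.76%). The raised share was higher for genes with little exon sequence. It went from 13.3% to 3.45% from the shortest to the longest of 5 equal groups by annotated exon length. These shares and those by chromosome include genes that passed the filter through the DAC libraries alone. Whether the shares differ without such genes was not tested.

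Raised genes had fewer CpG sites around their starts than other genes. The ratio of observed to expected CpG in the 300 bases around the annotated start had a median of 0.86 over 11147 protein-coding genes, 0.65 over the raised and 0.82 over the lowered ones. A ratio over 0.6, a usual mark of CpG islands, was held by 86.4% of all genes, 53.9% of the raised and 80.9% of the lowered genes. It was held by 39.4% of the 170 raised genes with at most 0.1 FPKM with DMSO. By ratio, 27.6% of genes below 0.3 were raised and 2.89% of those at 0.9 or above. The expression filter bears on this, as silent genes entered only when DAC brought them up. Among genes at 1 FPKM or more in both DMSO libraries, the shares were 13.2% and 2.03%. The share of lowered genes ran from 2.92% to 1.54% over the same range. No methylation was measured in these libraries.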

How the data were processed

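RNA was sequenced from parental THP-1 cells given DMSO or 1 µM DAC for 6 days, 2 libraries each. Per the submitters' processing notes the authors used cutadapt 1.9.1, HISAT2 2.1.0, SAMtools 1.6 and HTSeq 0.13.5 on hg38. Strand use in counting is not given in the sources used here. The authors deposited FPKM values, multiplied by 1000 in the file. After division by 1000, log2(FPKM + 1) was fitted with limma 3.58.1 (R 4.3.3, variances moderated along a trend, prior df 2.5, residual df 4) as 4 group means over 8 libraries of 14899 genes with at least 1 FPKM in 2 of them. Adjusted p-values are Benjamini-Hochberg over all of these. Exon lengths of GENCODE 44 turned 87.1% of the deposited gene values into whole reads (within 0.02), which gave depths and a voom alternative on library totals. A further 1264 repeat families were not used here.

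The members and gene lists were chosen with earlier results of these data known. There were 42 lists, and 3 more were added after values were seen. Outside the interferon and cancer-testis lists, genes named are the 10 largest rises and falls among protein-coding genes, the 6 most abundant raised and lowered genes, 4 per list and direction, and genes that define a list. Any other gene named was chosen after its values were seen, and some genes that meet the rule are not reported here. Starts are the canonical GENCODE ones on hg38, for 11147 of 11160 protein-coding genes. The sequences printed are from RefSeq, whose table holds 9102 of these genes.

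The fit was tested on simulated data for this comparison (13434 genes). Of 190 genes changed by 1.5 on the log2 scale 75.8% were called, and of the 106 at a mean of 5 FPKM or more 100% were, with 4 unchanged genes called. Alternatives were a pseudocount of 0.1, no filter, a mean of 5 FPKM, TPM, quantile and upper-quartile scaling, a replicate block, only 4 libraries, voom, adjusted p, 1.5-fold, and each replicate left out.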

Additional observations from a re-analysis of the deposited data

Results flagged for a closer look

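For 30 genes the effect of DAC differed between the 2 lines, by limma's interaction contrast (DAC effect in resistant cells minus that in parental cells, on the log2 scale, adjusted p at most 0.00014). They come from the 10 largest rises and falls and the 6 most abundant raised and lowered genes of parental cells, so their large parental change favours a difference. In resistant cells their log2 fold changes ran from −0.78 to 0.73, and none of the 30 was called.

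Among raised genes the difference was −5.97 for CXCL13, −5.84 for MMP9, −5.84 for CCL8, −5.11 for PNMA5, −5.08 for OTOF, −4.83 for SPARC, −4.77 for H1-2, −4.44 for S100A9, −4.38 for IGFBP3 and −4.38 for GPNMB. For the abundant ones it was −3.63 for RN7SL1, −2.32 for CALR, −1.63 for FTH1, −1.19 for SRGN and −0.92 for MT-RNR1.

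Among lowered genes it was 3.11 for PSAT1, 3.04 for INHBE, 2.86 for ALDH1L2, 2.72 for G0S2, 2.65 for FLRT1, 2.31 for ASS1, 2.14 for LPO, 1.99 for RIMS3, 1.90 for PHGDH and 1.86 for RNF175. For the abundant ones it was 1.60 for EEF1A1, 1.36 for EEF2, 1.60 for RPS6, 1.08 for RPL7A and 1.10 for RPL13A.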

How the results depend on the processing

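Counts of raised genes stayed within 1.5 times 990 except at a mean of 5 FPKM (358) and at a 1.5-fold limit (1996). Counts of lowered genes (391) moved further. They were 626 with a pseudocount of 0.1, 619 as TPM, 674 with voom, 237 at a mean of 5 FPKM and 1179 at a 1.5-fold limit. The filter and the limit act through the number of genes that can be called, and for the others the cause was not tested. Without one replicate, 960 to 1001 genes were raised and 383 to 414 lowered. The replicate numbers did not pair the samples (correlation of deviations 0.00), and with a replicate block 989 genes were raised and 392 lowered. Of 194 genes followed, by the rule or named after values were seen, 166 kept their call under every alternative. Signs changed for 4 uncalled genes. They were MYB (0.01 with quantile normalization, −0.06 to 0.03 with each replicate left out), RNASE2 (0.19) and MT-RNR2 (0.39 on the deposited values, −0.00) with quantile normalization, and RNU6ATAC (0.44 on all libraries, −0.03 to 0.92 with each replicate left out). Quantile normalization also took the calls of 14 genes, among them TPT1 (−0.62), RPL13A (−0.70), RPL7A (−0.72) and PABPC1 (−0.74). The median over all genes was 0.06 and lay between −0.04 and 0.07. Of 45 lists, 39 kept the sign of their median. A gene with few reads in DMSO has a fold that depends on the pseudocount: CXCL13 ran from 6.06 to 9.39.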

Other observations

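Genes of eosinophils, basophils and mast cells, a list added after values were seen, were measured for 10 of 19 members, and 6 of these had passed the filter through the DAC libraries alone. Raised were 8, among them HDC, which makes histamine, from 0.0405 and 0.0593 FPKM with DMSO to 4.38 and 4.84 with DAC, and RNASE3, the eosinophil cationic protein, from 6.66 and 7.01 to 16.1 and 18.0. TPSB2, a mast cell tryptase, had no read with DMSO and was at 2.30 and 1.95 FPKM with DAC. KIT, the stem cell factor receptor, was at 4.52 and 5.58 FPKM and then at 10.9 and 9.94 (log2 fold change 0.92, not called). RNASE2, the eosinophil-derived neurotoxin, was abundant throughout, at 686 and 655 FPKM and then at 615 and 593.5.

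Of 21 integrins and adhesion genes, CD82, VCAM1, CD9 and ICAM1 were raised, beside 7.09% of all genes. VCAM1 (0.0574 and 0.0436 FPKM with DMSO) and CD9 (0.0216 and 0.0509) had passed the filter through the DAC libraries alone. So 2 of the 19 at 1 FPKM or more with DMSO were raised, beside 3.13% of all genes at that level. CD9 lost its call under quantile normalization, at 0.97. Of 24 glycolysis genes the glucose transporter SLC2A1 and the hexokinase HK1 were raised, by 1.21 and 1.20, beside 7.09% of all genes. Both were among the 23 at 1 FPKM or more with DMSO, beside 3.13% raised at that level. Of 83 nuclear genes of the respiratory chain only NDUFA4L2 was called, lowered by −1.70, and the median was 0.07. Among 15 heat shock genes only HSPA1A was raised, from 2.03 and 1.10 FPKM to 11.97 and 11.8, beside 7.09% of all genes. It was 1 of the 14 at 1 FPKM or more with DMSO, beside the same 3.13%. NFE4, annotated as a long noncoding RNA, had 1 read in each DMSO library and was at 21.8 and 23.3 FPKM with DAC. Of 21 histone-based silencers, which hold genes shut through histone marks, none was called, with 9 higher and 5 lower at an unadjusted p under 0.05 in limma and a median of 0.09. Of 5 aldo-keto reductases AKR1C3, which reduces steroids and prostaglandins, was raised, from 1.28 and 1.46 FPKM to 6.60 and 7.43. Of 53 clustered protocadherins 10 passed the filter, and only PCDHGA12 was raised, from 0.0773 and 0.101 FPKM to 1.61 and 1.75, beside 7.09% of all genes. PCDHGA12 had passed the filter through the DAC libraries alone, and none of the 6 at 1 FPKM or more with DMSO was raised.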
